A study of Mus musculus with 8 samples.

Results

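Ephs are receptor tyrosine kinases, and ephrins are their ligands on the surface of neighbouring cells. EphA receptors mostly bind ephrin-A proteins, which are held by a lipid anchor, and EphB receptors mostly bind ephrin-B proteins, which cross the membrane. Contact can send a signal into both cells, and the system is known for setting boundaries, cell spacing and adhesion in epithelia, including stratified ones. The genes described here are 10 of the family, from a list of names chosen with earlier results of these data known. They are the receptors Epha1, Epha2, Epha4, Ephb2, Ephb3, Ephb4 and Ephb6 and the ligands Efna1, Efnb1 and Efnb2. All 10 were among the 55276 gene symbols of the count table, and all 10 were among the 17344 symbols with enough counts to be tested. The other 12 family genes are described after them.

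The libraries came from esophageal epithelium of C57BL6 mice aged 14 to 15 weeks with no labelled genetic change or drug. Live cells that carried integrin beta-1, an adhesion receptor of basal cells, were sorted by Cyto-ID, a dye for autophagic vesicles, into a Cyto-ID Low and a Cyto-ID High fraction. There were 4 libraries of each fraction, 1 each from the animals Female1, Female2, Male1 and Male2. The cell type label reads squamous cells for all 8, the labels' protocol speaks of basal cells in both fractions, and the animals' names alone tie a Low library to a High one. The comparison asks how cells rich in autophagic vesicles differ from those with few.

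Total counts ran from 26285150 to 29301054 per library. The 7 basal markers listed summed to 20547 to 24411 CPM (counts scaled to library size by the TMM method) in Low and 2666 to 4369 in High, and the 7 suprabasal markers to 8328 to 24901 in Low and 138680 to 235470 in High. All 7 basal markers were lower and all 7 suprabasal markers higher in High. Among them the basal keratin Krt5 averaged 8711 ± 807 CPM across Low libraries and 838 ± 305 across High ones, and the suprabasal keratin Krt4 averaged 6295 ± 3578 and 85156 ± 24001 (SD, n = 4). The High libraries thus carried far more suprabasal and far less basal marker RNA than the Low ones. This goes against a purely basal name for the High fraction, though basal markers remained in it. In Low the ranges of the basal and suprabasal sums overlapped. The part of the shift between fractions in the results below was not tested. In bulk RNA, fewer cells of a type and less RNA per cell cannot be told apart. Endothelial markers summed to at most 38.4 CPM and fibroblast markers to at most 497 CPM in any library. The High library of Male2 was the lowest of the High libraries for the endothelial, lymphatic endothelial, fibroblast, leukocyte, Schwann or neural and muscle lists. It also had the smallest scaling factor (0.679). Scaling factors were 1.16 to 1.304 in Low and 0.6791 to 0.9442 in High, so they separated the fractions. Female2 carried gastric transcripts, at 19.9 CPM in Low and 118 CPM in High.

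In Cyto-ID High, 4 receptors, Epha1, Epha2, Ephb3 and Ephb6, were about 3-fold higher than in Cyto-ID Low. The receptors Ephb2 and Ephb4 and the ligand Efnb1 were lower. Smaller increases were called for Epha4 and Efnb2, and the ligand Efna1 had similar means in both fractions. With library totals in place of TMM scaling, the log2 fold changes of the 4 higher receptors were 1.00 for Epha1, 1.01 for Epha2, 1.03 for Ephb3 and 1.08 for Ephb6, all still called. Those of the 3 lower genes were then −2.20 for Ephb2, −1.46 for Ephb4 and −1.51 for Efnb1, where the median of all tested genes was −0.64. In counts, 6 of the 10 genes were higher and 3 lower past the threshold (edgeR's quasi-likelihood test with sex as a covariate, Benjamini-Hochberg adjusted p under 0.05 over all 17344 genes). Since 48.7% of all tested genes passed, 23.4% higher and 25.3% lower, a large share of called genes is the background here. With library totals in place of TMM scaling, 4 of the 10 were higher and 4 lower, and over all genes 2194 were higher and 8514 lower in place of 4055 and 4385. The median log2 fold change was 0.64 for the 10 genes and −0.09 for all tested genes. For 8 of the 10 the CPM ranges of High and Low did not overlap, which held for 48.6% of all tested genes. The 10 genes were chosen with earlier results of these data known, so these shares test nothing about the family. Of the 7 other family genes tested, 2 were called, and their median log2 fold change was 0.1.

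**Figure D1:**
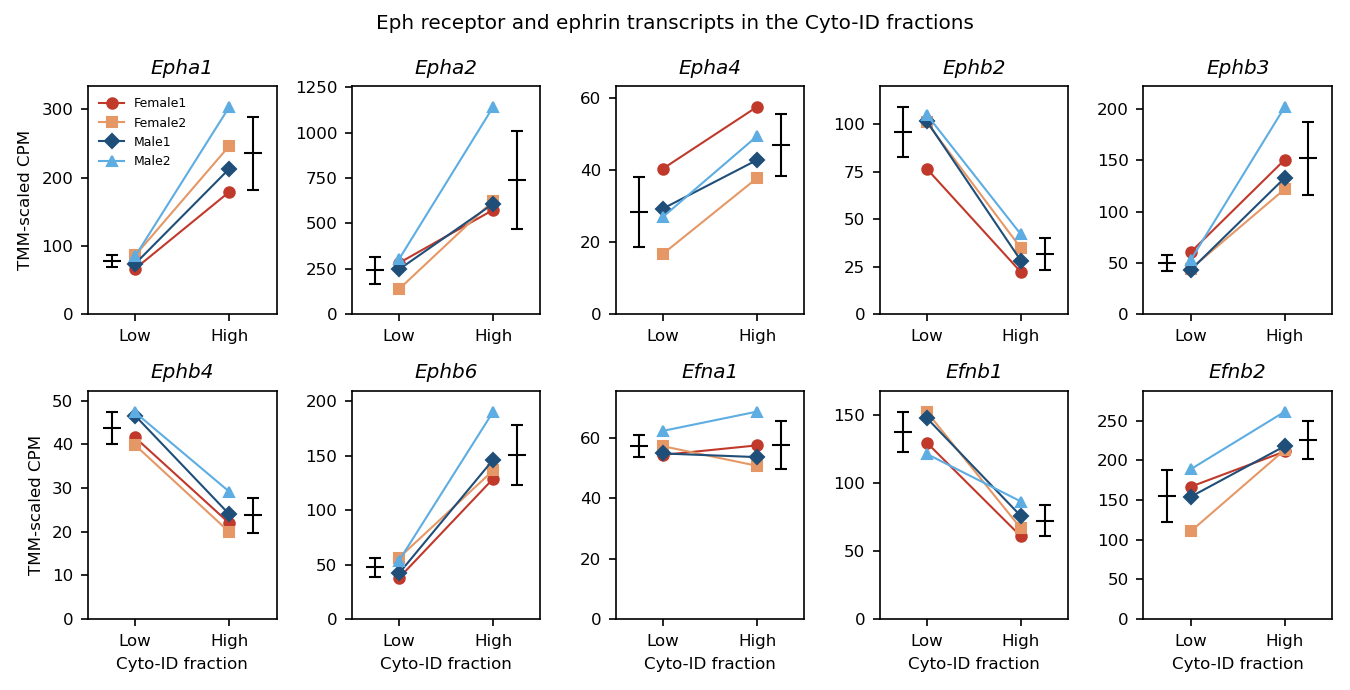
TMM-scaled CPM (y axis, from 0) of the 10 genes in each library by Cyto-ID fraction (x axis). Lines join the libraries of 1 animal, and black bars show the mean ± SD of 4 libraries. Epha1, Epha2, Ephb3 and Ephb6 climb in all 4 animals, Ephb2, Ephb4 and Efnb1 drop in all 4, and Efna1 stays between 50.8 and 68.7 CPM.

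In the GENCODE M21 annotation (GRCm38) the EphA genes lie apart from each other, Epha1 at chr6:42358487-42373268, Epha2 at chr4:141301240-141329384 and Epha4 at chr1:77367185-77515088. The EphB genes are Ephb2 at chr4:136647539-136835988, Ephb3 at chr16:21204755-21223305, Ephb4 at chr5:137350109-137378669 and Ephb6 at chr6:41605482-41620509. The ligand genes are Efna1 at chr3:89271733-89281142, Efnb1 at chrX:99136130-99148991 and Efnb2 at chr8:8617434-8661242. Each gene has 1 count per library, so isoforms were not told apart.

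The upstream sequence of 4 genes that moved in opposite directions is shown for reference, 2 that were higher in High (Epha1, Epha2) and 2 that were lower (Ephb2, Efnb1). Each is the 250 bases before the annotated start, 5′ to 3′, from RefSeq (GRCm38.p6). Capitals mark any match, on either strand, to the AP-1 site TGANTCA, the Grhl site AACCNGTT, the CACCC box bound by Klf factors, the Tead site GGAATG or the GC box GGGCGG bound by Sp factors. These windows lie at chr6:42373269-42373518 on the minus strand, chr4:141300971-141301220 on the plus strand, chr4:136836013-136836262 on the minus strand and chrX:99135811-99136060 on the plus strand.
Epha1: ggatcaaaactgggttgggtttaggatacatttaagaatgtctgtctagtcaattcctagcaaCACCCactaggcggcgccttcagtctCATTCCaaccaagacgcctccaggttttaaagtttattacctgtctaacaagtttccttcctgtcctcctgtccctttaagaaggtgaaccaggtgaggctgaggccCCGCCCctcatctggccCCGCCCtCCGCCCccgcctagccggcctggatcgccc
Epha2: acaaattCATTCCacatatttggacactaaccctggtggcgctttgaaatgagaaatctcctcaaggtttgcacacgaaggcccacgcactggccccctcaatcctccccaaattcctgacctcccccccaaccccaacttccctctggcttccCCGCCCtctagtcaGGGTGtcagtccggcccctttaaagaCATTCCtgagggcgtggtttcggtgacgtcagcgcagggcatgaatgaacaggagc
Ephb2: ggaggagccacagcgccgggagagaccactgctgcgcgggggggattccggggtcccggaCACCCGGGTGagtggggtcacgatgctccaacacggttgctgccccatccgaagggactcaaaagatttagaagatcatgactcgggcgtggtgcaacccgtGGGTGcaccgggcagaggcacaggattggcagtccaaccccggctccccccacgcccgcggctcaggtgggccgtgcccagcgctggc
Efnb1: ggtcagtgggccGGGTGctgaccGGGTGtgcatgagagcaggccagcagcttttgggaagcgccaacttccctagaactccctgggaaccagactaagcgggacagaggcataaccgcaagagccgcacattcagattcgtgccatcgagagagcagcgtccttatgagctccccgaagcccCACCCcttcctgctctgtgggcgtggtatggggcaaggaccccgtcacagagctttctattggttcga
All 10 genes had a window in that table, 11 in all because Efna1 has 2 starts. The CACCC box was in 10 of the 11 windows and in 52.0% of all 32851 windows, and the GC box in 9 of the 11 and in 32.7% of all. The Tead letters were in 3 of the 11, those of Efnb2, Epha1 and Epha2, against 12.6% of all. The AP-1 and Grhl letters were in 0 of the 11, against 6.75% and 1.79% of all. Genes of both directions held the CACCC box, and the GC box was absent from Ephb2 and Efnb1 but present in Ephb4, which was also lower. Matches of CACCC and GGGCGG can overlap, and a match is a string of letters, not a bound site.

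Among the EphA receptors, Epha2 had the highest level. Epha2, a receptor abundant in keratinocytes, was at 282, 138, 247 and 302 CPM in the Low libraries of Female1, Female2, Male1 and Male2 and at 575, 625, 609 and 1142 CPM in their High libraries. Every High library was above every Low library, with Female2 lowest among Low and Male2 far above the other High libraries. The log2 fold change was 1.59 (edgeR, SE 0.27, adjusted p 0.000899), a 3.02-fold increase. Within animals the log2 difference ran from 1.03 in Female1 to 2.18 in Female2, and the call held without High Male2 (log2 1.37, adjusted p 0.00182, edgeR).

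Epha1, the founding member of the family and an epithelial receptor, was at 66.7, 86.1, 73.9 and 84.8 CPM in Low and at 179, 247, 213 and 304 CPM in High, in the same order of animals. The groups were well apart, and the animals resembled each other, with differences of 1.43 to 1.84 on the log2 scale. The fold change was 3.01 (log2 1.59, SE 0.19, edgeR adjusted p 9.45e-05). Exons of Zyx overlap 236 of the 3928 exon bases of Epha1 on the other strand, and strand use in the counting was not stated.

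Epha4, a receptor that binds ligands of both classes, was at 40.5, 16.8, 29.4 and 27.1 CPM in Low and 57.7, 37.9, 42.9 and 49.5 CPM in High. High was above Low in all 4 animals, but the ranges overlapped, because Female1 Low lay above Female2 High. The log2 fold change was 0.73 (edgeR, SE 0.25, adjusted p 0.0374). The adjusted p was 0.107 without High Female1 (log2 0.60), 0.055 without High Male1 (0.77), 0.0718 without High Male2 (0.69), 0.0637 without Low Male1 (0.76) and 0.0696 without Low Male2 (0.74). Without both Male2 libraries it was 0.0967 (log2 0.73), with the animal as a replicate block 0.00207 (0.77) and by DESeq2 0.00691 (0.80). With library totals in place of TMM scaling the change was 0.18 with an adjusted p of 0.577.

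The EphB receptors split in 2 directions. Ephb3 was at 60.4, 44.1, 43.1 and 52.7 CPM in Low (Female1, Female2, Male1, Male2) and at 151, 122, 133 and 202 CPM in High, a log2 fold change of 1.60 (edgeR, SE 0.20, adjusted p 0.000137). Ephb6, a receptor without kinase activity, was at 37.8, 56.3, 42.0 and 53.6 CPM in Low and at 129, 137, 147 and 191 CPM in High. Its log2 fold change of 1.66 (edgeR, SE 0.18, adjusted p 6.93e-05) was a 3.16-fold increase. For both genes the 4 High libraries lay above the 4 Low libraries by a wide margin, and Male2 was the highest.

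Ephb2, a receptor known for positioning cells in the intestinal crypt, went the other way. It was at 76.6, 101, 102 and 105 CPM in Low and at 22.2, 34.7, 28.1 and 41.98 CPM in High. The groups were apart, with Female1 lowest in both fractions. Its log2 fold change was −1.60 (edgeR, SE 0.19, adjusted p 0.000118), a level 3.04-fold lower in High, and the animals ranged from −1.85 in Male1 to −1.32 in Male2. In raw counts Ephb3 was 0.424 to 0.788 times Ephb2 in the Low libraries and 3.52 to 6.80 times Ephb2 in the High libraries. This ratio within a library does not depend on how libraries are scaled, but it does contain the difference in gene length.

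Ephb4, a receptor also known from veins, was at 41.5, 39.8, 46.5 and 47.3 CPM in Low and at 21.9, 19.9, 23.95 and 29.1 CPM in High. Low was above High throughout, at a log2 fold change of −0.89 (edgeR, SE 0.12, adjusted p 0.000262). Of the 8 endothelial markers listed, 0 passed the test, and their sum ran from 15.7 to 30.3 CPM in Low and from 2.01 to 38.4 in High. Pecam1, an endothelial marker, had 292, 214, 134 and 227 counts in Low and 275, 72, 152 and 15 in High (Female1, Female2, Male1, Male2), so it was far lower in High in Female2 and Male2 and similar in the other animals. The 4 lymphatic endothelial markers summed to 19.0 to 24.8 CPM in Low and 2.57 to 4.24 in High, nearly all of it Pdpn, which basal keratinocytes also express and which was lower (edgeR, log2 −3.55, adjusted p 1.27e-05). Without Pdpn, a split made after its values were seen, the sum ran from 0.963 to 1.79 CPM in Low and from 0.412 to 1.97 in High, and the ranges overlapped. The part of endothelial cells in the level of Ephb4 was not tested.

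Of the ligands, 1 was lower, 1 higher and 1 not called. Efnb1, a transmembrane ligand of EphB receptors that lies on the X chromosome, was at 130, 152, 148 and 121 CPM in Low and at 60.7, 66.6, 75.6 and 86.3 CPM in High. The fractions did not overlap. The log2 fold change was −0.94 (edgeR, SE 0.15, adjusted p 0.000687), and within animals the difference was −0.49 in Male2 and −0.97 to −1.19 in the other 3.

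Efnb2, the second transmembrane ligand, was at 167, 110, 154 and 189 CPM in Low and at 211, 213, 218 and 261 CPM in High. High was above Low in every animal, and the ranges did not overlap. The log2 fold change of 0.55 (SE 0.17) had an edgeR adjusted p of 0.0227, which was 0.0535 without High Female2 (log2 0.53), 0.0525 without High Male2 (0.51) and 0.0503 without Low Male1 (0.50). The replicate block for the animal gave 0.0105 (log2 0.57) and DESeq2 0.00134 (0.62). Scaled by library totals the change was −0.01 with an adjusted p of 0.941. In raw counts Efnb2 was 0.725 to 1.56 times Efnb1 in Low and 2.88 to 3.48 times Efnb1 in High, and the ratio rose in all 4 animals.

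Efna1, a lipid-anchored ligand that binds Epha2, was at 54.4, 57.3, 54.9 and 62.3 CPM in Low and at 57.5, 50.8, 53.7 and 68.7 CPM in High. It was higher in High in 2 animals and lower in 2. The log2 fold change was 0.01 (edgeR, SE 0.13, adjusted p 0.965). This depends on the scaling: with library totals the change was −0.56 with an adjusted p of 0.00347, where the median of all tested genes was −0.64.

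**Figure D2:**
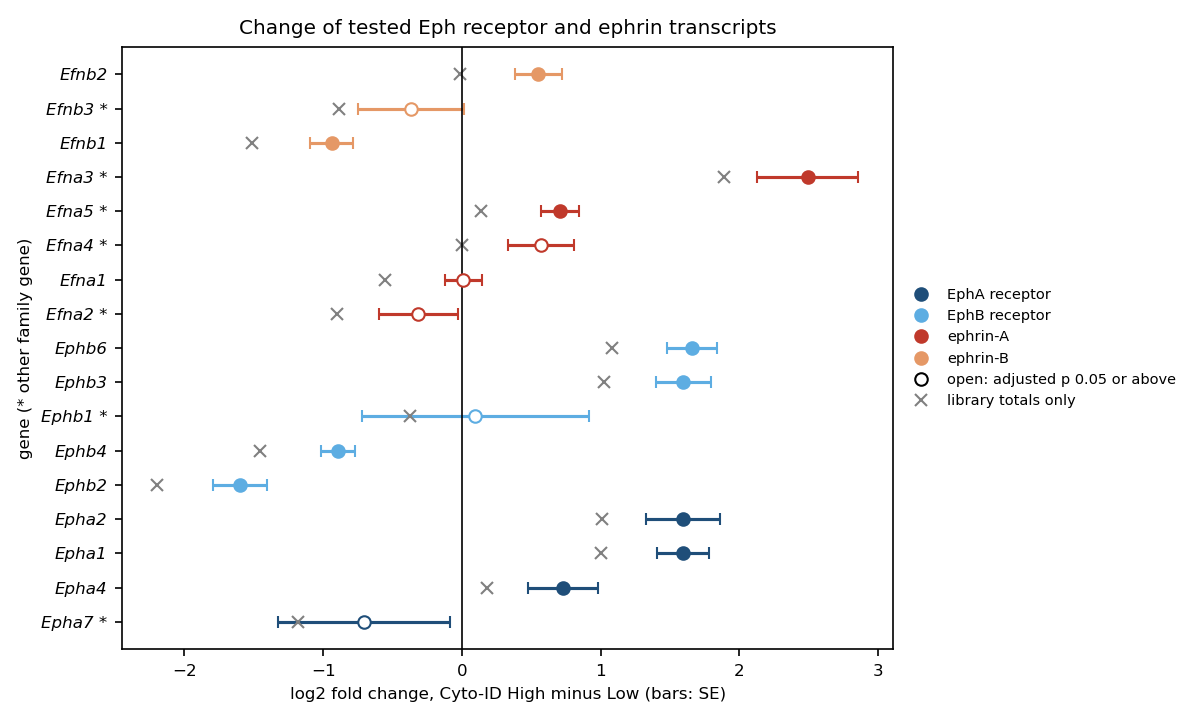
Log2 fold change of High minus Low (x axis, bars show the SE) for the 17 family genes tested, by class (colours). Filled points passed the test, grey crosses show the change with library totals only, and an asterisk marks genes outside the list of 10. Efna3 at 2.49 lies farthest to the right and Ephb2 at −1.60 farthest to the left, and each cross lies left of its point.

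Of the 12 other family genes, 7 passed the filter on low counts, and 2 of these 7 were called, both higher. Efna3, another lipid-anchored ligand, was at 12.5, 27.6, 12.9 and 30.3 CPM in Low and at 74.4, 129, 98.2 and 173 CPM in High. Its increase of 2.49 on the log2 scale (edgeR, SE 0.36, adjusted p 0.000368), or 5.63-fold, exceeded the fitted change of each of the 10 genes described above. Exons of Gm15998 overlap 344 of its 2434 exon bases on the other strand. Efna5 was at 19.7 to 22.7 CPM in Low and 30.8 to 40.97 in High, a change of 0.71 (edgeR, SE 0.14, adjusted p 0.00203), which was 0.13 with an adjusted p of 0.33 under library totals.

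Efna4 was higher in High in all 4 animals, with a log2 fold change of 0.57 (SE 0.24). The test gave an adjusted p of 0.0719 (edgeR), but 0.0131 with the animal as a replicate block, 0.0392 by DESeq2, 0.0155 without both Female2 libraries, 0.0393 without High Female1 and 0.00755 without Low Female2. It was 0.241 without Low Male1 (log2 0.42) and 0.185 without Low Female1 (0.42), and with library totals the change of Efna4 was −0.003 with an adjusted p of 0.994. Exons of 4731419I09Rik overlap 168 of the 1599 exon bases of Efna4 on the other strand. Efna1, Efna3 and Efna4 are neighbours within 66.3 kb of chromosome 3 (GRCm38, 89271733 to 89338028), and their fitted changes were 0.01, 2.49 and 0.57. Efna2 and Efnb3 were low, at 1.37 to 2.50 and 0.36 to 1.09 CPM, and did not pass (−0.31, SE 0.29, and −0.37, SE 0.38). Leaving out 1 library gave −0.49 to −0.17 for Efna2 and −0.61 to −0.14 for Efnb3.

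Epha7 was at 3.08 to 3.89 CPM in Low and at 3.01, 1.74, 3.55 and 0.103 CPM in High. The last value is 2 counts in Male2, whose High library also had the lowest sum of fibroblast markers (38.4 CPM, against 463 in High Female1), and the part of such cells was not tested. The change of −0.71 (edgeR, SE 0.62, adjusted p 0.386) did not pass. It was −0.32 without High Male2, −1.59 without High Male1, −1.16 under limma-voom and −1.04 with a replicate block, and did not pass in any of these. Ephb1, at 0 to 21 counts per library, did not pass either (edgeR adjusted p 0.939). Epha3, Epha5, Epha6, Epha8 and Epha10 were under the filter.

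To compare genes, CPM were divided by the exon length in kb. In Low the order of the 10 genes was Epha2, at 51.9 ± 15.7 CPM per kb (SD, n = 4), then Efnb1 (39.9 ± 4.25), Efna1 (31.3 ± 1.99), Efnb2 (22.6 ± 4.81), Epha1 (19.8 ± 2.36), Ephb6 (12.6 ± 2.37), Ephb4 (9.44 ± 0.793), Ephb2 (7.62 ± 1.04), Ephb3 (7.54 ± 1.22) and Epha4 (3.53 ± 1.21). The ranges of neighbours in this order overlapped for Epha2 and Efnb1, Efnb2 and Epha1, Ephb6 and Ephb4, and Ephb2 and Ephb3. In High, Epha2 led at 158 ± 57.9 CPM per kb, apart from Epha1 at 60.1 ± 13.5, and Ephb2 was last at 2.52 ± 0.677. Ephb2 has the longest exon total of the 10 genes (12608 bases), so its place rests on the length used. Ephb6 (39.96 ± 7.30), Efnb2 (33.0 ± 3.48), Efna1 (31.5 ± 4.31), Ephb3 (22.9 ± 5.34) and Efnb1 (20.9 ± 3.24) followed Epha1 with overlapping ranges between neighbours, and Epha4 (5.84 ± 1.07) and Ephb4 (5.11 ± 0.854) overlapped as well.

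The makeup of the family was described as the share of each gene in the summed CPM per kb of all 14 Eph receptors or all 8 ephrins, which does not depend on the scaling of libraries. Epha2 held 45.1% ± 8.9 of the receptor sum in Low and 52.8% ± 3.74 in High (SD, n = 4). Epha1 held 17.9% ± 4.04 and 20.6% ± 2.44. Ephb6 had mean shares of 11.4% ± 3.33 and 13.8% ± 1.29, and Ephb3 of 6.71% ± 0.923 and 7.88% ± 1.11. By animal, Ephb6 rose from 8.55% to 14.3% in Female1, 9.99% to 15.1% in Male1 and 10.9% to 12.1% in Male2. It fell from 16.2% to 13.8% in Female2. The share of Ephb2 was 6.87% ± 1.47 in Low and 0.861% ± 0.136 in High, and that of Ephb4 8.44% ± 0.839 and 1.78% ± 0.252, with ranges far apart for both. With the length of the transcript with the longest coding sequence in place of all exons, a length chosen after seeing the data, Ephb2 held 13.9% and 1.86%, above Ephb6 (8.83%), Ephb3 (8.24%) and Ephb4 (7.04%) in Low and above Ephb4 in High (1.58%).

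Among the ligands, Efnb1 held the largest mean share in Low, 35.0% ± 4.37, and 13.9% ± 1.23 in High. Efna3 held 7.37% ± 3.02 in Low and 31.3% ± 5.87 in High, the largest mean share there. With no length scaling Efnb2 held the largest share of both fractions, 38.2% and 43.4%, while Efna3 held 5.14% and 22.1% and Efna1 14.2% and 11.1%. Efna1 held 27.3% ± 0.555 and 21.0% ± 2.93, and Efnb2 19.8% ± 4.15 and 22.0% ± 2.09. As sums, the EphA receptors were at 75.6 ± 15.6 CPM per kb in Low and 224 ± 70.1 in High, and the EphB receptors at 37.2 ± 2.85 and 70.5 ± 13.5. The ephrin-A sum was 51.5 ± 6.90 and 97.7 ± 22.1, while the ephrin-B sum was 62.8 ± 2.16 and 54.1 ± 6.47, a lower mean in High. This direction rests on the length scaling: as CPM with no length scaling, tried after seeing the data, the ephrin-B sum was 293 ± 20.9 in Low and 299 ± 34.0 in High. These sums are descriptions, with no test.

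**Figure D3:**
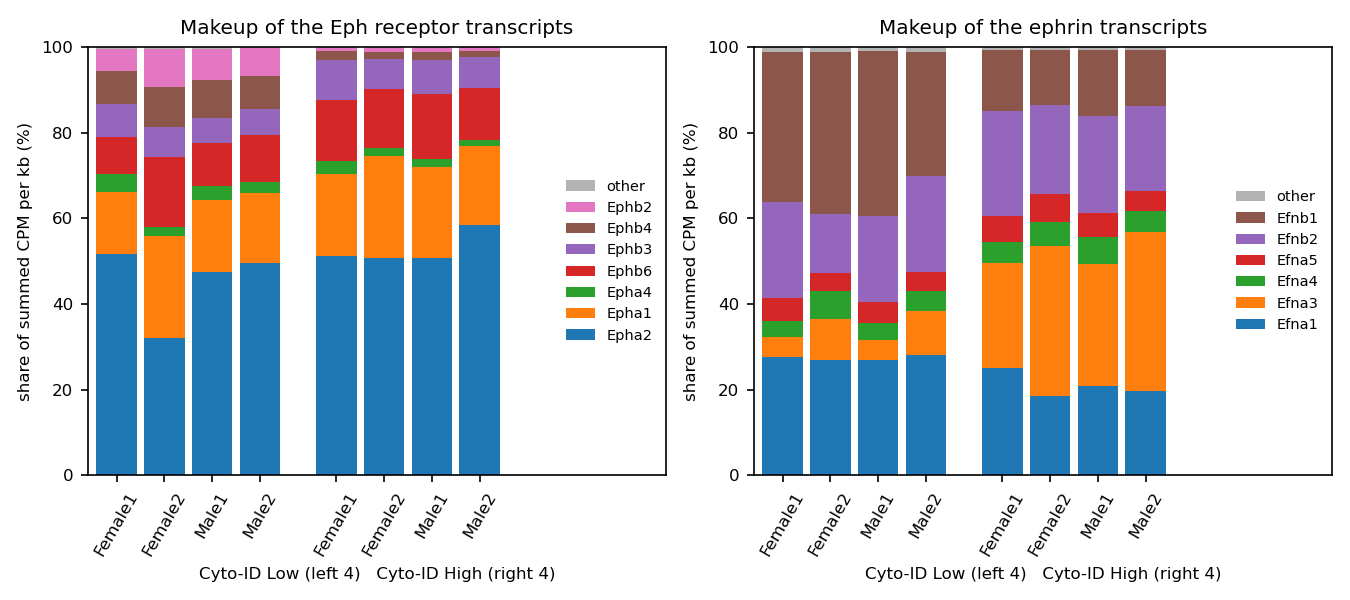
Share of each gene in the summed CPM per kb (y axis, percent) of the Eph receptors (left) and ephrins (right), 1 bar per library, Cyto-ID Low to the left and High to the right of each panel. Ephb2 and Ephb4 shrink to 0.861% and 1.78% of the receptors in High, and Efna3 grows to 31.3% of the ephrins as Efnb1 drops to 13.9%.

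Proteins that act with Ephs and ephrins were followed in a list of 46 genes, all of them tested. Of these, 9 were higher and 18 lower in High past the threshold and 19 did not pass, so 58.7% were called beside 48.7% of all genes, and their median log2 fold change was −0.27 beside −0.09. The adaptors and kinases had 5 higher and 8 lower of 18, the turnover, cleavage and phosphatase group 0 higher and 3 lower of 9, and the ephrin-B binding proteins 0 higher and 2 lower of 4. With library totals 5 partners were higher and 25 lower.

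The largest increases were in Kalrn, which acts downstream of EphB receptors in neurons, from 3.97 ± 2.04 to 40.95 ± 8.91 CPM (SD, n = 4), and in Fyn, a Src-family kinase, from 5.21 ± 2.28 to 46.4 ± 9.99 CPM. Their log2 fold changes were 3.36 (edgeR, SE 0.38, adjusted p 7.52e-05) and 3.15 (edgeR, SE 0.34, adjusted p 6.29e-05). Afdn, a junction protein with a PDZ domain that binds Eph receptors, rose by 2.19 (SE 0.18) to 549 ± 85.3 CPM. Sipa1l1, a Rap GTPase-activating protein, rose by 1.61 (SE 0.15) to 140.1 ± 22.0 CPM. In all 4 the High libraries lay above the Low libraries.

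The largest decreases were in a protease, a ubiquitin ligase, an ephrin-B binding protein and a protein recruited to Ephs. Mmp14, a membrane protease that can cleave Epha2, had a log2 fold change of −2.77 (edgeR, SE 0.20, adjusted p 1.33e-05), from 130.9 ± 2.63 to 19.3 ± 5.00 CPM. Rgs3, whose PDZ form binds ephrin-B, went from 20.9 ± 5.70 to 3.20 ± 0.822 CPM (edgeR, adjusted p 3.28e-05), and Cblb, a ubiquitin ligase, fell by 2.66 (SE 0.19), from 103.6 ± 18.7 to 16.5 ± 4.43 CPM. Vav2, recruited to Ephs, fell by 1.94 (SE 0.16), to 3.91 ± 0.411 CPM. Each of these 8 partners kept its direction and its call in each of the 19 alternatives run. They were picked as the largest called changes with the same sign in every animal, so this is no independent support.

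Male and female animals were compared through the interaction of sex and fraction. Of 17344 genes, 0 passed (edgeR's quasi-likelihood test, 0.0% called), and 19 (0.11%) had an unadjusted p under 0.05, with 0 of the 10 genes among them. That count was 38 in the fit with a replicate block for the animal, again with 0 genes past the adjusted threshold. With no difference at all, a share of about 0.05 of the genes would have such a p, far more than 0.11%. With so few animals of each sex, the lack of called genes does not show that the sexes were alike. For the 10 genes the male minus female difference in log2 fold change ran from −0.13 for Efnb2 to 0.42 for Ephb3, with SEs of 0.27 to 0.57 and unadjusted p from 0.205 for Efnb1 to 0.96 for Epha4.

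For each gene the transcript with the most similar profile was sought among 10007 genes with a mean of at least 5 CPM, by the root mean square (RMS) difference of centred log2 CPM over the 8 libraries. The nearest was Ppp1r13b for Epha1 (0.0381), Stk40 for Epha2 (0.105), Gramd3 for Epha4 (0.137), Hs6st1 for Ephb2 (0.0911) and Gcat for Ephb3 (0.109). It was Bap1 for Ephb4 (0.0776), Hdac5 for Ephb6 (0.102), Nenf for Efna1 (0.046), Kdm3b for Efnb1 (0.06) and Rdh10 for Efnb2 (0.0752). The median RMS difference over all candidates was 0.399 for Efna1 to 0.939 for Epha2. None of the nearest genes belonged to the family or the partner list. The likeness describes these 8 libraries only.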

How the data were processed

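RNA was measured by bulk sequencing in 8 libraries. The authors deposited raw counts per gene symbol as integers, and library totals differ. STAR 2.7.3, DESeq2 and the build GRCm38 are named in the submitters' processing notes. The counting tool, annotation and strandedness are not given in the sources used here. All 8 columns matched a sample by animal name and fraction.

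Tests ran in edgeR 4.0.16 under R 4.3.3 (filterByExpr, TMM, glmQLFit and glmQLFTest, two-sided) with sex as a covariate, which left 17344 genes. Benjamini-Hochberg adjustment covered all of them, at a threshold of 0.05. SEs were derived from the fold change and F. Every CPM uses TMM-scaled library sizes, and profiles used log2 CPM with prior count 2. Nothing says how the cells of an animal were handled beyond the sort. The reported fit treats all libraries as separate samples. Its p-values weigh the fraction difference against the spread between libraries left once fraction and sex are fitted. Exon lengths, positions and overlaps are from GENCODE M21, which held all 10 genes and 53388 of the 55276 symbols.

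Each animal's name occurs in both fractions, which pairs the libraries, but the reported tests use sex and not the animal. Deviations from the fraction means correlated at 0.43, 0.32, −0.02 and 0.28 within Female1, Female2, Male1 and Male2 and at −0.37 to 0.35 between animals, across genes, which are not replicates. The animal as a replicate block was an alternative, as were DESeq2 1.42.0, limma-voom (limma 3.58.1), other scalings and filters, and leaving out libraries or animals. No 2 libraries of a fraction agreed within sampling noise (chi-square per degree of freedom at least 17.7). The fits were tested on simulated counts.

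The genes and lists were chosen with earlier results of these data known. Named were the 10 genes, the other family genes, the 4 partners with the largest change in each direction among those called with 1 sign in all 4 animals, and the nearest profile of each gene. The marker lists were basal, suprabasal, endothelial, lymphatic endothelial, fibroblast, leukocyte, Schwann or neural, muscle and gastric. Of these lists, 7 of 7 basal genes were lower and 7 of 7 suprabasal genes higher in High. Called lower were 0 of 8 endothelial, 1 of 3 lymphatic endothelial, 1 of 7 fibroblast, 1 of 6 leukocyte, 0 of 3 Schwann or neural, 1 of 6 muscle and 0 of 1 gastric genes tested, and none was called higher. Of the partners, 1 group by role is not reported here.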

Additional observations from a re-analysis of the deposited data

Results flagged for a closer look

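In 34 groups of 4 libraries (17 family genes in 2 fractions), Dixon's test on log2 CPM asked whether 1 library lay apart from the other 3. About 1 group in 20 does so by chance, and here 5 did. In High Male2, Epha2 was at 1142 CPM where the other High libraries had 574.6 to 625.2, and Efnb2 was at 261.4 CPM where they had 211.2 to 218.0. This library also had the smallest scaling factor (0.679) and the highest sum of suprabasal markers (235470 CPM), and the part of these was not tested. Without it, the log2 fold change of Epha2 was 1.37 in place of 1.59. Ephb2 was at 76.62 CPM in Low Female1, below the other Low libraries at 101 to 105.1. Efna2 was at 1.553 CPM in Low Male1, where the others had 2.316 to 2.502. Ephb1 was at 0.1207 CPM in Low Male2, or 4 counts, where the others had 0.4324 to 0.4399.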

How the results depend on the processing

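In each of 19 alternatives, 7 of the 10 genes had the sign and call reported above; Epha4, Efnb2 and Efna1 did not. The number higher was 4 to 6 and the number lower 3 or 4. The count over all genes ran from 7269 to 8106 when 1 library was left out and from 7279 to 10708 in the other alternatives. Pairing the fractions by animal (replicate block) gave 9336 genes, of which 8393 were also called with sex as the covariate, and among the family this changed only the call of Efna4 (adjusted p 0.0131). Library totals moved the median of all genes from −0.09 to −0.64 and gave Efna1 −0.56, Efnb2 −0.014, Efna4 −0.003, Ephb1 −0.38 and Efna2 −0.90 (adjusted p 0.0152), and 5 partners higher in place of 9. Efna1 was also below 0 with no filter (−0.034) and with at least 10 counts in every library (−0.009), and ran from −0.077 to 0.072 when 1 library was left out. Ephb1 was −0.64 under limma-voom and −0.28 with the block, and ran from −0.62 to 0.49 without 1 library. For the interaction with sex, leaving out 1 library gave −0.10 to 0.48 for Epha1, −0.48 to 0.54 for Epha2 and −0.83 to 0.33 for Epha4. Among EphB receptors it gave −0.26 to 0.45 for Ephb2, 0.088 to 0.692 for Ephb3, −0.011 to 0.27 for Ephb4 and −0.13 to 0.55 for Ephb6. Among ligands it gave −0.091 to 0.27 for Efna1, 0.17 to 0.51 for Efnb1 and −0.48 to 0.003 for Efnb2. The cause of these changes was not tested. With no length scaling the mean log2 ratio of the ephrin-B sum within animals was 0.023 in place of −0.221. Ephb1 had at most 21 counts per library and an SE of 0.82.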
